A study of Sus scrofa with 2 samples.

Results

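Of 31664 nuclei kept from the free wall of the left ventricle in 2 Bama pig libraries, 77 carried transcripts of adipocyte genes, a share of 0.243% (exact Clopper-Pearson interval 0.192 to 0.304%). A nucleus was counted when it held at least 2 molecules, read as unique molecular identifiers (UMIs), of ADIPOQ and PLIN1 combined, so the members were chosen by the measured counts of these genes. ADIPOQ encodes the hormone adiponectin (chromosome 13, 124633906 to 124646237 in Sscrofa11.1), and PLIN1 encodes perilipin 1, the coat protein of the fat droplet (chromosome 7, 55237517 to 55250797). Of the 77 members, 58 (75.3%) had neither a cardiomyocyte nor a fibroblast signal. Another 14 also had a cardiomyocyte signal, set at 1% of UMIs from RYR2 and CTNNA3. A further 5 had a fibroblast signal, set at 0.15% of UMIs from ABCA8, COL1A1 and PDGFRA, and 0 had both. The 58 are described first and the 19 others apart.

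Single-nucleus RNA sequencing covered 1 library of each genotype, from frozen heart muscle taken after 12 months of a diet high in fat and sucrose that both groups received. TG was the triple-transgenic Bama pig, labelled PNPLA3I148M-GIPRdn-hIAPP: an altered PNPLA3, which encodes a droplet lipase, a dominant-negative GIP receptor, and the human islet peptide IAPP. WT was the wild-type Bama pig. The labels give no age, sex or number of animals and no promoter for the transgenes, and genotype and library cannot be told apart. The TG library gave 14939 kept nuclei from 15000 barcodes, with 89324966 UMIs in all and 3937 UMIs in the median kept nucleus. The WT library gave 16725 from 18251 barcodes, with 127126477 UMIs in all and a median of 5442. With 1 library per genotype no test was possible, and every interval below covers counting error at 95% only. PCR duplicates are removed by UMIs, but differences between animals are outside these intervals.

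White adipocytes store fatty acids as triglyceride in a single large droplet and release them by lipolysis. The nuclear receptor PPARG and the factor CEBPA hold the cells in this state, and insulin favours uptake and storage while it restrains release. Fat cells of the heart lie mainly in the epicardium and around vessels, and single ones can lie between muscle fibres. Pig adipocytes make new fatty acids themselves, so enzymes of that pathway are characteristic of pig fat.

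The TG library held 50 members among 14939 nuclei, 0.335% (0.249 to 0.441%), and the WT library 27 among 16725, 0.161% (0.106 to 0.235%). The TG share was 2.07 times the WT share (1.27 to 3.44). With each nucleus thinned to 2000 UMIs, the ratio was 1.73 and its interval, 0.935 to 3.28, included equal shares. Members with neither signal numbered 40 in TG and 18 in WT, a ratio of shares of 2.49 (1.39 to 4.61). These are shares of nuclei recovered, and the lowest total among kept nuclei was 1972 UMIs in TG and 602 UMIs in WT.

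Both rule genes were found together in 36 of 50 TG members and in 19 of 27 WT members. In members with neither signal, the sum of ADIPOQ and PLIN1 ran from 2 to 53 UMIs in TG with a median of 7, and from 2 to 47 UMIs in WT with a median of 16.5. At the edge of the rule, 14 TG and 5 WT members had exactly 2 UMIs. Just outside it, 137 TG and 48 WT nuclei had exactly 1 UMI. Cardiomyocyte-signal nuclei, which should lack both genes, carried at least 1 UMI of them in 1.21% of cases in TG and 0.446% in WT, at median depths of 8435 and 10864 UMIs. At least 2 UMIs were present in 0.145% of those nuclei in TG and 0.0697% in WT.

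**Figure D1:**
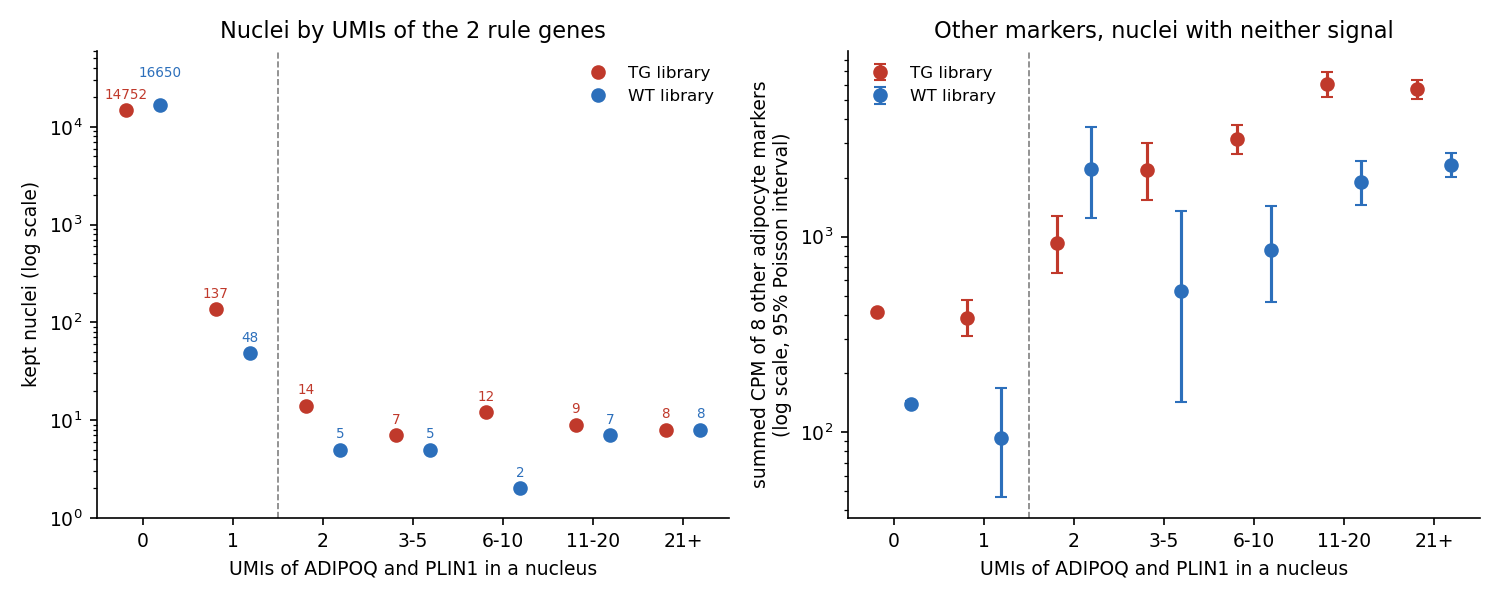
Left, number of kept nuclei (log scale) by their UMIs of ADIPOQ and PLIN1; right, summed level of 8 other adipocyte markers in nuclei with neither signal, in counts per 1000000 nuclear-encoded UMIs, CPM (log scale, bars are 95% Poisson intervals), with the TG library left of the WT library in each class and the rule's edge as a dashed line. In TG the other markers were at 386 CPM at 1 UMI and 5684 CPM at 21 or more, and in WT at 93.9 and 2335 CPM.

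The label was read beside 8 adipocyte markers that the rule did not use. Members and lists were chosen with earlier results of these data known, so the 8 markers are no independent check of the label. These were ACVR1C, DGAT2, PLIN4, CIDEC, LIPE, GPAM, FABP4 and LEP, and levels are in counts per 1000000 nuclear-encoded UMIs (CPM). In TG nuclei with neither signal, their summed level was 410 CPM at 0 UMIs of the rule genes, 386 at 1, 925 at 2, 2185 at 3 to 5, 3144 at 6 to 10, 6038 at 11 to 20 and 5684 at 21 or more. In WT nuclei it was 140, 93.9, 2220, 526, 853, 1899 and 2335 CPM over the same classes, where the class at 2 UMIs is a single nucleus. At 1 UMI the intervals, 310 to 476 CPM in TG and 46.9 to 168 CPM in WT, took in the level at 0 UMIs. Without FABP4, which capillary endothelium also uses, and GPAM, at least 1 of the 6 remaining markers was present in 4 of 11 TG members with 2 UMIs and in 11 of 11, 7 of 7 and 7 of 7 TG members of the classes from 6 UMIs up. It was present in 6.94% of TG and 6.12% of WT nuclei with 0 UMIs.

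Of the 8, GPAM did not mark the members. GPAM, an acyltransferase of triglyceride synthesis, had 31.2 CPM in TG and 20.9 CPM in WT members with neither signal, against 118 and 176 CPM in fibroblast-signal non-members. LEP, which encodes leptin, had 7 UMIs in TG and 1 UMI in WT members, too few to pass the floor, at 36.4 CPM in TG members against 0.0679 CPM in TG non-members and 6.95 CPM in WT members against 0.00809 CPM in WT non-members. Of the 8, 6 passed the floor of 20 UMIs, and each was at least 2 times the non-member level in both libraries.

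Some members with 2 UMIs also carried markers of further cell types. Endothelial, lymphatic, macrophage, lymphocyte or Schwann markers reached 0.5% of UMIs in 10 of 40 TG and 2 of 18 WT members with neither signal. Those 10 TG members had a median of 2.00 UMIs of the rule genes, and 3 of them had 1 of the 6 stricter markers. Of the other members, 29 of 30 in TG and 16 of 16 in WT had 1. The part of these further cell types in the results below was not tested, and values without them are given where they differ.

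Cardiomyocyte transcripts were present in members with neither signal at different levels in the libraries. The summed level of 13 cardiomyocyte markers in a member had a median of 5637 CPM in TG (2237 to 29283) and of 1964 CPM in WT (502 to 21963). Among non-members with neither signal the summed levels were 11861 CPM in TG and 6835 CPM in WT. FGF12 was the only one of the 13 at 0 UMIs in WT members, and none was at 0 in TG members. RYR2 and CTNNA3 together made up a median of 0.0887% of UMIs in TG members and 0.00349% in WT members. One WT member lay just under the limit, at 0.972%. It was the deepest WT member with neither signal, and its 25589 nuclear-encoded UMIs were 17.8% of that group's. MYH7 and MYL2, contractile genes of heart muscle, had 2208 and 1647 CPM in TG members and 633 and 577 CPM in WT members.

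**Figure D2:**
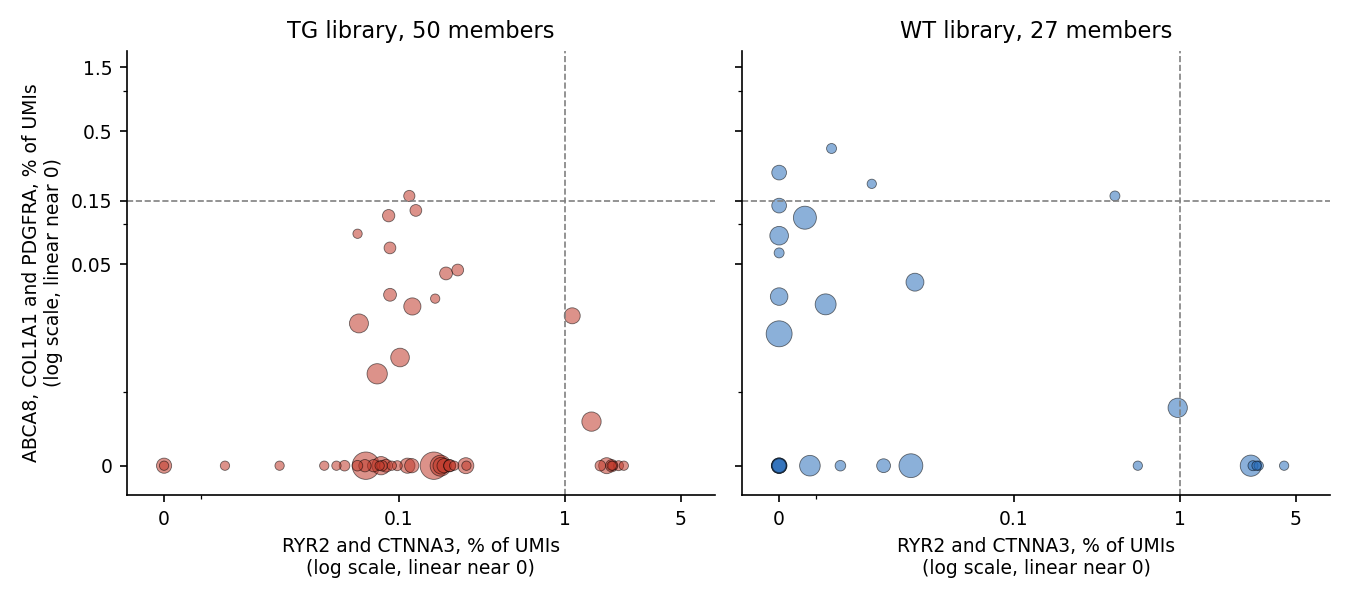
Share of UMIs from RYR2 and CTNNA3 against the share from ABCA8, COL1A1 and PDGFRA in each member (log scales, linear near 0), TG left and WT right, with point size growing with UMIs of the rule genes and thresholds dashed. Most TG members lie near 0.0887% on the cardiomyocyte axis and most WT members near 0, while 9 TG and 5 WT members lie past 1%.

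Many of the genes that ran with ADIPOQ and PLIN1 act in fat storage. Over members with neither signal, 4335 genes passed a floor of 20 UMIs, counted or expected at the non-member level. Of these, 519 (12.0%) were at least 2 times as high as in non-members in both libraries, and 427 (9.85%) were at most 0.5 times as high. Scaled by the median of ratios in place of CPM, the counts were 386 higher and 534 lower. This contrast is built on the 2 rule genes and is a description. The median log2 ratio over the 4335 genes was 0.31 in TG and 0.19 in WT, and values for lists are read beside it.

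ACVR1C, which encodes the activin receptor ALK7 that restrains lipolysis in mouse fat, came next after ADIPOQ in order of the lower bound of its ratio. Its level was 229 CPM in TG members and 0.102 CPM in TG non-members, and 806 CPM in WT members and 0.162 CPM in WT non-members. DGAT2, the enzyme that adds the last acyl chain of triglyceride, had 1060 CPM in TG members against 1.83 CPM in TG non-members, and 264 CPM in WT members against 1.69 CPM in WT non-members. The ratios were 2246 in TG and 4982 in WT for ACVR1C, and 578 in TG and 156 in WT for DGAT2. ADIG, which encodes adipogenin, a small membrane protein of adipocytes, had 161 CPM in TG members against 0.645 CPM in TG non-members, and 111 CPM against 0.275 CPM in WT.

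The droplet and lipolysis genes CIDEC, LIPE and PLIN4 were also concentrated in the members. CIDEC, which enlarges droplets by fusion, had 109 CPM in TG members against 1.59 in TG non-members, and 69.5 CPM against 0.753 in WT. LIPE, hormone-sensitive lipase, had 390 CPM in TG members against 6.93 in TG non-members, and 292 CPM against 8.85 in WT. PLIN4, a droplet coat protein also made in muscle, had 436 CPM against 11.7 in TG and 153 CPM against 18.7 in WT, ratios of 37.5 and 8.19.

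Among 20 adipogenic transcription factors 14 were measured, of which 9 were higher in members in both libraries, 1 was lower and 4 were neither. The median log2 ratio was 1.80 in TG and 1.89 in WT, against 0.31 and 0.19 for all measured genes, and over all members it was 1.01 in TG and 1.26 in WT. PPARG had 1465 CPM in TG members against 49.0 CPM in TG non-members, a ratio of 29.9, and 2099 CPM in WT members against 32.2 CPM in WT non-members, a ratio of 65.1. MLXIPL, which encodes the glucose-sensing factor ChREBP, was 127 times as high in TG members as in TG non-members and 125 times in WT. CEBPA was 44.2 times as high in TG and 34.7 times in WT, on 13 and 9 UMIs. EBF1, an early adipogenic factor, was 11.9 times as high in TG and 6.28 times in WT. PPARGC1A, a coactivator of mitochondrial genes, was the lower one, at 0.0676 and 0.279 times the non-member level.

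**Figure D3:**
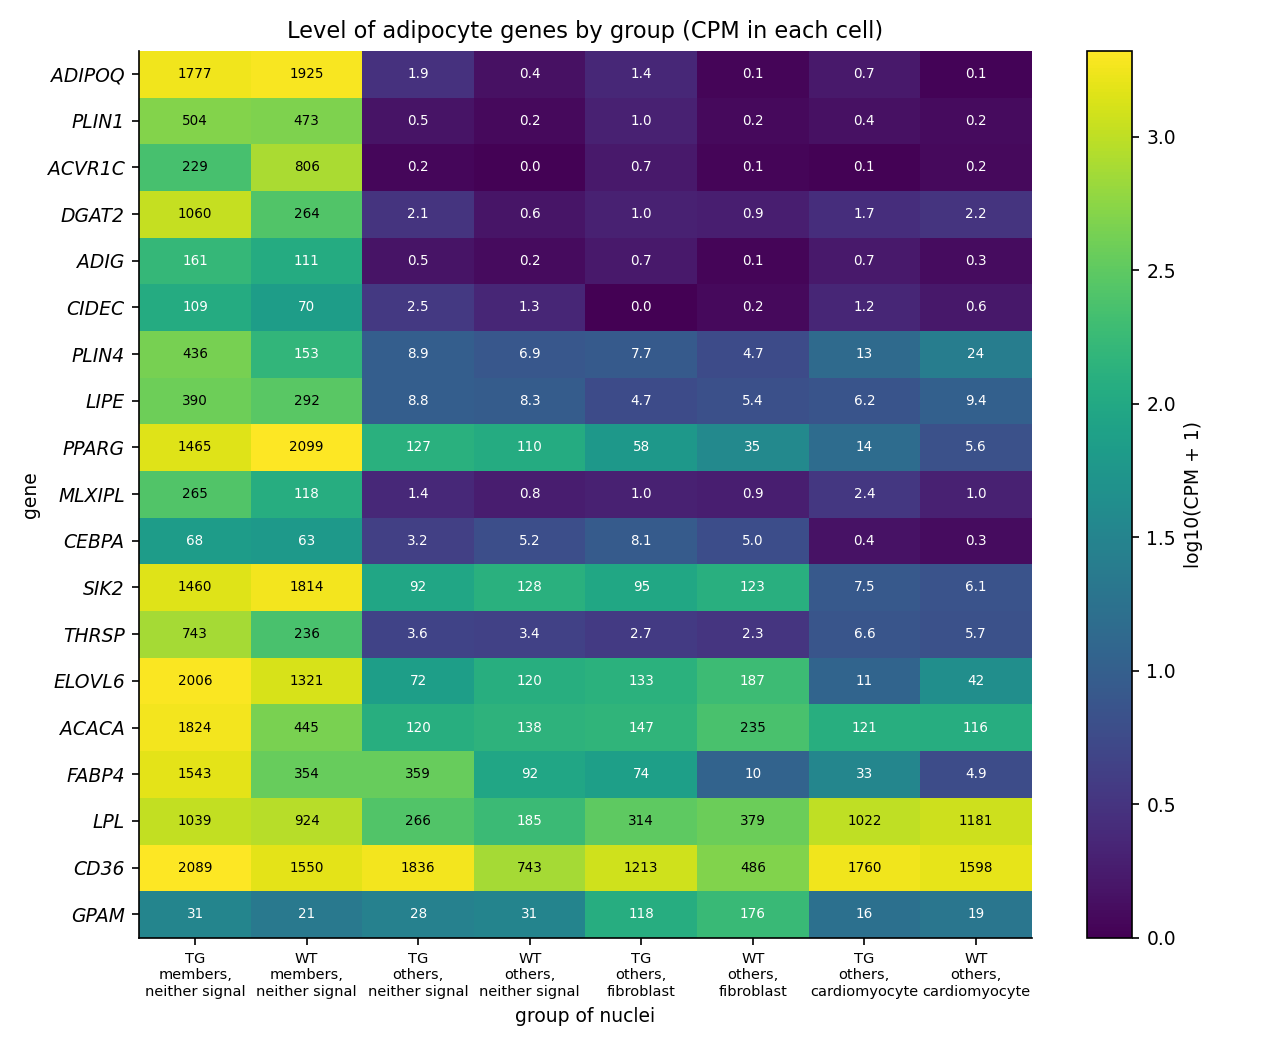
Levels (CPM printed in each cell, colour on a log10 scale after adding 1) of 19 adipocyte genes in members with neither signal and in 3 groups of other nuclei, TG left of WT in each group. ADIPOQ to THRSP stand out in the members, whereas LPL and CD36 are at like levels in cardiomyocyte-signal nuclei (1022 and 1760 CPM in TG) and GPAM is highest in fibroblast-signal nuclei.

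Several leading genes have no standard place in lists of fat cell markers. GRIA2, which encodes a glutamate receptor subunit, had 286 CPM in TG members against 0.260 CPM in TG non-members, and 160 CPM against 0.146 CPM in WT. PCLO, a presynaptic scaffold gene, had 322 CPM against 0.905 CPM in TG and 111 CPM against 0.583 CPM in WT. TFCP2L1, a transcription factor of kidney and stem cells, had 270 CPM against 0.600 CPM in TG and 118 CPM against 0.639 CPM in WT. GRIA2 was present in 15 of 40 TG and 9 of 18 WT members, so single nuclei did not carry it, although 1 TG nucleus held 17 of its 55 UMIs. SGK2, a kinase gene of the SGK family, was found in 8 of 40 TG and 7 of 18 WT members.

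Further leading genes belong to peroxisomal, glycolytic and signalling steps. ABCD2, a peroxisomal transporter of very long-chain fatty acids, was 554 times as high in members as in non-members in TG and 172 times in WT. HK2, an insulin-responsive hexokinase, was 177 times as high in TG and 62.2 times in WT. KLB, which encodes beta-klotho, the co-receptor of the hormone FGF21, was 231 times as high in TG and 63.4 times in WT. SIK2, a salt-inducible kinase abundant in fat, had 1460 CPM in TG members against 35.5 CPM in TG non-members, and 1814 CPM against 43.9 CPM in WT. The ratios of SIK2 were 41.2 in TG and 41.3 in WT. The rest of the 25 leading genes were IMPA2, THRSP, DUSP4, WDR93, PEX11A, PC, ACER2 and BMPER, with ratios from 23.4 to 134.

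Uptake genes did not set the members apart from other nuclei. Of 14 genes 8 were measured, 1 was higher in both libraries (FABP4) and 7 were neither. LPL, lipoprotein lipase, had 1039 CPM in TG members against 774 CPM in TG non-members, and 924 CPM against 885 CPM in WT. CD36, the fatty acid translocase, had 2089 CPM against 1764 CPM in TG and 1550 CPM against 1309 CPM in WT. Both genes are also used by cardiomyocytes and endothelium.

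Thermogenic and mitochondrial genes were low in the members beside all non-members combined. Of 17 genes 8 were measured, 0 were higher and 5 were lower than in non-members in both libraries, with medians of -1.40 in TG and -1.33 in WT on the log2 scale. ATP2A2, the calcium pump of muscle, had 421 CPM in TG members against 1604 CPM in TG non-members, and 639 CPM against 1814 CPM in WT. Non-members with a cardiomyocyte signal numbered 6199 of 14889 in TG and 7172 of 16698 in WT. They held 59163854 of the 88404486 nuclear-encoded UMIs of TG non-members, and 84752715 of 123566843 in WT. Their part in these values was not tested. PRDM16, the regulator of brown fat, had 0 UMIs in TG and 5 UMIs in WT members.

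The 2 genotypes were then compared within members with neither signal, 40 nuclei with 192455 nuclear-encoded UMIs in TG and 18 nuclei with 143866 in WT. Their median depths were 4149 UMIs in TG and 6936 UMIs in WT. Of 3783 genes whose UMIs reached 20 over the 2 libraries, 571 (15.1%) were at least 2 times as high in TG and 471 (12.5%) were at most 0.5 times as high. Their median log2 ratio was 0.04. Below, "higher" and "lower" mean past these ratios. Without the deepest member of each library, an alternative chosen after seeing the data, 500 genes were higher and 384 lower.

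Most measured genes of fatty acid synthesis were higher in TG members with neither signal. Of 18 genes 11 were measured, 7 were higher in TG, 1 was lower and 3 were neither, with a median log2 ratio of 1.56 against 0.04 for all measured genes. SCD, the desaturase that makes oleate (chromosome 14, 111461560 to 111478033), had 142 UMIs in 15 of 40 TG nuclei, 738 CPM, and 0 UMIs in 18 WT nuclei. Against 3 UMIs over the WT group, the limit that a count of 0 allows, the TG level was at least 35.4-fold higher, a bound that leaves out the counting error of the TG level. At 0 of 18 WT nuclei, a share of up to 16.7% remains possible for nuclei with an SCD UMI. SCD stood at 1.78 CPM in TG non-members and 1.10 CPM in WT non-members.

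FASN, fatty acid synthase (chromosome 12, 922405 to 937560), had 91 UMIs in 14 of 40 TG nuclei and 1 UMI in 1 of 18 WT nuclei. Its level was 473 CPM (381 to 581) in TG and 6.95 CPM (0.176 to 38.7) in WT, a ratio of 68.0 (11.9 to 2716). This ratio depends on which members are taken in, because 1 WT member with a cardiomyocyte signal held 43 FASN UMIs, more than the 39 of the highest TG nucleus. Over all 50 TG and 27 WT members, FASN was at 308 CPM in TG and 182 CPM in WT, a ratio of 1.69 (1.18 to 2.46) that did not pass 2. SCD had 142 UMIs in TG and 3 UMIs in WT over all members, the 3 in that same WT nucleus, a ratio of 41.4 (13.9 to 203). ACLY, which supplies acetyl-CoA from citrate (chromosome 12, 20796678 to 20841301), had 86 UMIs in 15 TG nuclei and 4 UMIs in 4 WT nuclei. The ACLY levels were 447 CPM in TG and 27.8 CPM in WT, a ratio of 16.1 (6.05 to 60.3), and over all members 5.85 (3.25 to 11.4). In TG members FASN and ACLY were at 156 and 24.3 times the level of TG non-members, and in WT members, on 1 and 4 UMIs, at 1.70 and 1.63 times that of WT non-members.

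ACACA, acetyl-CoA carboxylase, which makes malonyl-CoA for the synthase (chromosome 12, 38580916 to 38875067), was detected in 29 of 40 TG and 12 of 18 WT nuclei. Its level was 1824 CPM (1638 to 2025) in TG and 445 CPM (343 to 568) in WT, a ratio of 4.10 (3.13 to 5.44). Over all members the ratio was 3.92 (3.07 to 5.05). The median nucleus had 2 ACACA UMIs in TG and 4 in WT, and 4 TG nuclei held 234 of the 351. ME1, malic enzyme, which yields NADPH, had 826 CPM in TG and 278 CPM in WT, a ratio of 2.97 (2.09 to 4.32). THRSP, a lipogenic protein known as Spot 14, had 743 CPM in TG and 236 CPM in WT, a ratio of 3.14 (2.15 to 4.71). TKT, a transketolase of the pentose phosphate pathway, had 151 CPM in TG and 69.5 CPM in WT, a ratio of 2.17 (1.03 to 4.99).

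The elongase ELOVL6 was at 2006 CPM in TG and 1321 CPM in WT, and its ratio of 1.52 (1.27 to 1.82) did not pass 2. ELOVL5 and ACSS2 did not pass it either, at 1.38 and 1.5. ACSS3, a mitochondrial acyl-CoA synthetase for short chains, was the lower gene, with 457 CPM in TG and 994 CPM in WT.

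The synthesis genes were carried unevenly among TG nuclei. One TG nucleus of 11428 nuclear-encoded UMIs, 5.94% of the group's, held 35.5% of the UMIs of the 11 genes and led in 10 of them. It held 66 of the 142 SCD UMIs, 39 of the 91 FASN UMIs, 44 of the 86 ACLY UMIs and 126 of the 351 ACACA UMIs. The next nucleus had 21 SCD UMIs, and 4 nuclei together held 118 of the 142. Without the leading nucleus the median of the list was 0.89, with every nucleus weighted equally it was 0.85, and over all members, whatever their signal, it was 0.83.

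Detection of these genes overlapped within nuclei. Of 15 TG nuclei with SCD, 11 had FASN, 10 ACLY, 12 ACACA, 14 ELOVL6 and 13 THRSP. Of 25 TG nuclei without SCD, 3 had FASN, 5 ACLY, 17 ACACA, 16 ELOVL6 and 14 THRSP. Median depths were 4512 UMIs with SCD and 3932 UMIs without it. Nuclei with and without SCD were not matched for UMIs of the rule genes. Further cell type markers were carried by 10 of the 40, and their part in this overlap was not tested. After each nucleus was thinned to 2000 UMIs, SCD was present in 12 of 40 TG nuclei (30.0%, 16.6 to 46.5%) and 0 of 17 WT nuclei, and in 0.510% of TG and 0.278% of WT non-members. Thinned FASN was present in 27.5% of TG nuclei and 0 of 17 WT nuclei.

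**Figure D4:**
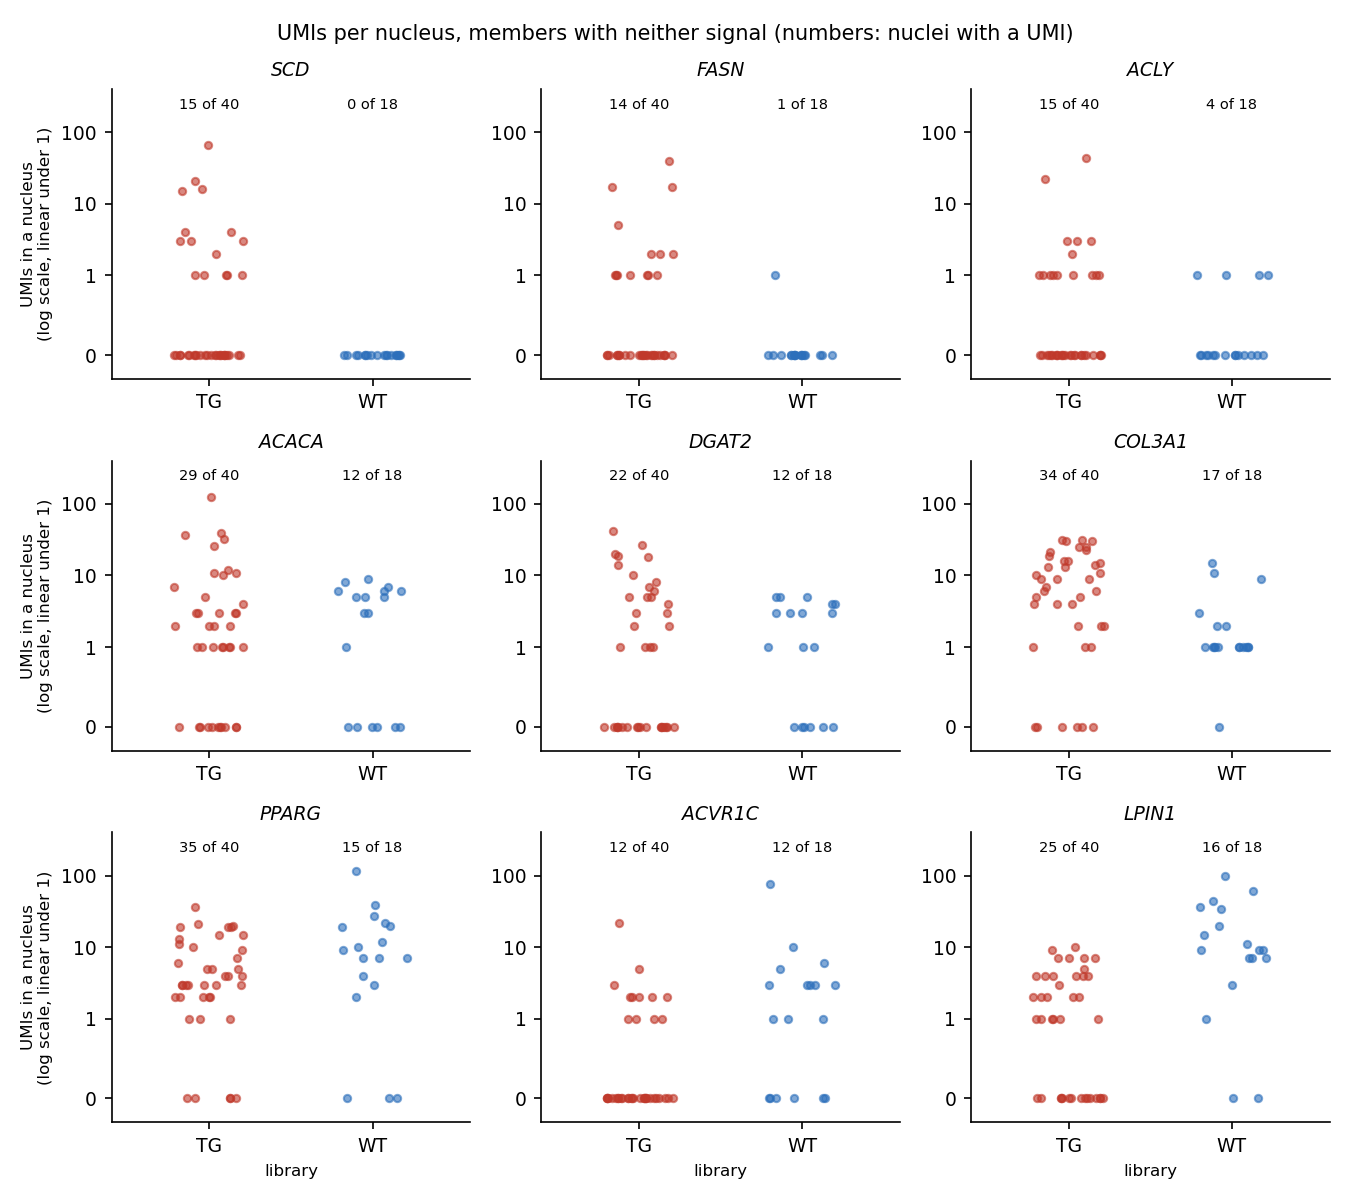
UMIs of 9 genes in each member with neither signal (log scale, linear under 1), TG left of WT, with the number of nuclei holding a UMI above each column. SCD reaches 66 UMIs in 1 TG nucleus and is at 0 in 18 WT nuclei, while LPIN1 reaches 10 UMIs in TG and 100 UMIs in WT.

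Triglyceride synthesis did not move as 1 group. Of 19 genes 10 were measured, with 4 higher in TG, 2 lower and 4 neither, and a median log2 ratio of 0.22, which was -0.38 over all members. DGAT2 had 204 UMIs in 22 of 40 TG nuclei and 38 UMIs in 12 of 18 WT nuclei. Its level was 1060 CPM (920 to 1216) in TG and 264 CPM (187 to 363) in WT, a ratio of 4.01 (2.83 to 5.83). The median nucleus had 1 DGAT2 UMI in TG and 2 in WT, at median depths of 4149 and 6936 UMIs. In TG 4 nuclei held 108 of the 204 UMIs, and in WT 4 held 19 of the 38. ACSL1, which activates fatty acids to their CoA esters, had 1242 CPM in TG and 348 CPM in WT, a ratio of 3.57 (2.63 to 4.95). MOGAT2, a monoacylglycerol acyltransferase, had 125 CPM in TG and 20.9 CPM in WT, and its non-member levels also differed, at 8.98 CPM in TG and 1.63 CPM in WT.

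LPIN1 and PCK1 were the lower genes of that list. LPIN1, lipin 1, which forms diacylglycerol and acts as a transcriptional coregulator (chromosome 3, 124940557 to 125074137), had 494 CPM (399 to 603) in TG and 2600 CPM (2343 to 2877) in WT. The LPIN1 ratio was 0.190 (0.15 to 0.238), and the median nucleus had 1 UMI in TG and 9 UMIs in WT. PCK1, which supplies glycerol in fat by glyceroneogenesis, had 3 UMIs in 1 TG nucleus and 22 UMIs in 4 WT nuclei, a ratio of 0.102 (0.0195 to 0.339). It was almost absent outside the members, at 0.0339 CPM in TG and 0.0324 CPM in WT non-members.

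Among genes of lipolysis and its control, 11 of 22 were measured, with 1 higher in TG, 4 lower and 6 neither. The median log2 ratio was -0.35, 0.03 without members that carried further cell type markers, and 0.23 over all members. The lipases were close between libraries. LIPE had 390 CPM in TG and 292 CPM in WT (ratio 1.33, 0.903 to 2.00), and PNPLA2, adipose triglyceride lipase, 192 CPM in TG and 202 CPM in WT (0.954, 0.571 to 1.61).

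The partners of adipose triglyceride lipase differed in opposite directions. ABHD5, its coactivator CGI-58, had 46.8 CPM (21.4 to 88.8) in TG and 341 CPM (252 to 450) in WT, a ratio of 0.137 (0.0593 to 0.282). G0S2, its inhibitor, had 187 CPM (131 to 259) in TG and 27.8 CPM (7.58 to 71.2) in WT, a ratio of 6.73 (2.41 to 26.0). The non-member ratios were 1.27 for ABHD5 and 1.23 for G0S2. PDE3B, the phosphodiesterase through which insulin restrains lipolysis, had 1148 CPM in TG and 2336 CPM in WT, a ratio of 0.492. PTGER3, a prostaglandin E receptor coupled to inhibition of adenylyl cyclase, had 410 CPM in TG and 1724 CPM in WT, a ratio of 0.238. ADCY5, an adenylyl cyclase, was lower too, at 0.340.

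Insulin signalling held 4 lower and 2 higher genes in TG among 16 measured of 22, with 10 neither and a median log2 ratio of -0.41. IRS2, an insulin receptor substrate, had 208 CPM (148 to 283) in TG and 1029 CPM (870 to 1208) in WT, a ratio of 0.202 (0.139 to 0.288). In non-members IRS2 was at 51.8 CPM in TG and 117 CPM in WT, a ratio of 0.442. IRS1 had 98.7 CPM in TG and 278 CPM in WT, and the receptor gene INSR 182 CPM in TG and 375 CPM in WT. TRARG1, a regulator of the glucose transporter GLUT4, had 265 CPM in TG and 48.7 CPM in WT, and under 1 CPM in non-members of either library. The higher gene GRB14, an inhibitor of the insulin receptor, had 29 UMIs in TG, 12 of them in 1 nucleus, and 1 UMI in WT.

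**Figure D5:**
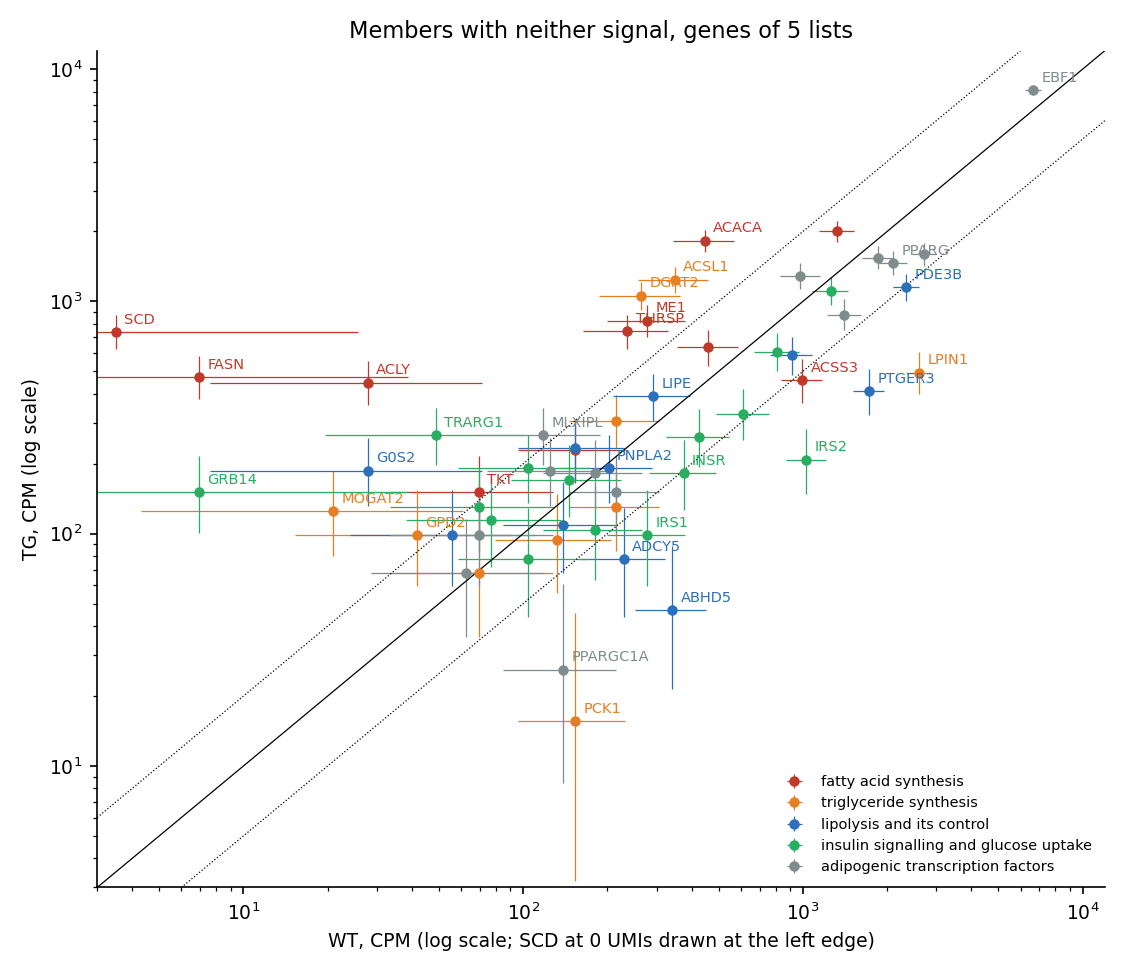
Level in TG against level in WT (CPM, log scales) for measured genes of 5 lists in members with neither signal, with 95% Poisson intervals, the line of equality and dotted lines at ratios of 2 and 0.5. SCD, FASN, ACLY and ACACA lie above the upper dotted line, and LPIN1, IRS2, PTGER3 and ABHD5 lie under the lower one.

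Most adipogenic factors were past neither ratio. Of 13 measured adipogenic factors 1 was higher in TG (MLXIPL, 2.24), 1 was lower (PPARGC1A, 5 UMIs in TG and 20 UMIs in WT) and 11 were neither. PPARG had 1465 CPM in TG and 2099 CPM in WT, a ratio of 0.698, and 0.979 with the leading nucleus of each library left out. ACVR1C had 229 CPM (166 to 307) in TG and 806 CPM (666 to 967) in WT, a ratio of 0.284 (0.196 to 0.404). One WT nucleus held 77 of its 116 UMIs and 1 TG nucleus 22 of its 44, and without both the ratio was 0.422. It was detected in 12 of 40 TG and 12 of 18 WT members.

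Among 14 genes of fatty acid uptake and transport, 5 were measured, with 3 higher in TG, 0 lower and 2 neither. Their median log2 ratio was 1.93 against 0.04 for all measured genes. FABP4, a fatty acid carrier of adipocytes and capillaries, was higher in TG members, at 1543 CPM in TG and 354 CPM in WT, a ratio of 4.35. Among non-members it was 131 CPM in TG and 25.3 CPM in WT, a ratio of 5.17. PDK4, which blocks glucose oxidation, had 644 CPM in TG and 125 CPM in WT members, a ratio of 5.15, and its ratio in non-members was 5.17. FABP5 and APOE also differed in the same direction in non-members, at ratios of 4.15 and 5.83, beside 6.35 and 9.90 in members. The part of transcripts from other cells in these values was not tested.

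Matrix genes were higher in TG or past neither ratio. Of 19 basement membrane and matrix genes 14 were measured, 6 were higher in TG, 0 were lower and 8 were neither, and the median log2 ratio was 0.63. COL5A3, a fibrillar collagen chain, had 873 CPM (746 to 1015) in TG and 174 CPM (112 to 257) in WT, a ratio of 5.02. COL15A1, a collagen of the basement membrane zone, had 1008 CPM in TG and 334 CPM in WT, a ratio of 3.02 (2.19 to 4.24). LAMB1, the laminin beta 1 chain, had 405 CPM in TG and 146 CPM in WT. LAMC1, the gamma 1 chain, went the other way without passing 0.5, with 1294 CPM in TG and 2537 CPM in WT.

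COL3A1, a collagen on the list of fibroblast markers, had 2182 CPM (1979 to 2401) in TG and 368 CPM (276 to 482) in WT members, a ratio of 5.92 (4.44 to 8.04). It was present in 34 of 40 TG and 17 of 18 WT members, with 8 UMIs in the median TG nucleus and 1 UMI in the median WT nucleus. Of the 14 fibroblast markers 10 were measured in this comparison, with 1 higher (COL3A1), 1 lower (NEGR1) and 8 neither. Their summed level was 4333 CPM in TG and 3510 CPM in WT members, with SCN7A at 0 UMIs in both. DCN, which encodes decorin, had 135 CPM in TG and 97.3 CPM in WT, under the 519 CPM and 404 CPM of non-members. COL3A1 in non-members was at 146 CPM in TG and 299 CPM in WT.

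Ranked genes had 50 CPM or more in at least 1 library. They also had at least 2 times the non-member level in the library where they were higher. Of these, the 12 with the highest bound in TG were SCD, FASN, ADAMTS18, PIK3C2G, CA3, CADM2, CYP2B22, ACLY, GALNT16, AOX1, ITIH5 and GPC6. GPC6, a glypican of the cell surface, had 539 UMIs in 32 of 40 TG nuclei and 56 UMIs in 12 of 18 WT nuclei, 2801 CPM in TG and 389 CPM in WT, a ratio of 7.19 (5.46 to 9.65). GALNT16, which starts O-glycans, had 665 CPM in TG and 55.6 CPM in WT, a ratio of 12.0 (5.89 to 28.3). ADAMTS18, a metalloprotease gene, had 109 UMIs in 20 TG nuclei and 2 UMIs in 2 WT nuclei. ITIH5, a hyaluronan-binding protein abundant in fat, had 566 CPM in TG and 48.7 CPM in WT, and was near equal in non-members at 81.9 CPM in TG and 77.3 CPM in WT.

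CA3, carbonic anhydrase 3, abundant in rodent fat, had 52 UMIs in 12 TG nuclei and 1 UMI in WT. AOX1, aldehyde oxidase, had 29 UMIs in 15 TG nuclei and 0 UMIs in WT, at least 7.23-fold higher. CYP2B22, a cytochrome P450, had 32 UMIs in 19 TG nuclei and 0 UMIs in WT, at least 7.97-fold higher. In non-members the TG over WT ratios of CA3, AOX1 and CYP2B22 were 8.04, 7.96 and 7.60, and that of ADIPOQ was 6.78, at 1.10 CPM in TG and 0.162 CPM in WT. PIK3C2G was at least 9.47-fold and CADM2 at least 8.47-fold higher in TG, with 13 of 38 and 17 of 34 UMIs in 1 nucleus.

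Among genes within the same limits, the 12 with the lowest bound were led by NEGR1, a neuronal growth regulator that is also a fibroblast marker. NEGR1 had 7 UMIs in 5 of 40 TG nuclei and 139 UMIs in 14 of 18 WT nuclei, 36.4 CPM in TG and 966 CPM in WT, a ratio of 0.0376 (0.0149 to 0.0796). After thinning to 2000 UMIs it was present in 7.5% of TG and 70.6% of WT members. PLPP3, a lipid phosphate phosphatase, had 166 CPM in TG and 1703 CPM in WT, a ratio of 0.0976 (0.0653 to 0.141), and was found in 21 of 40 TG and 17 of 18 WT nuclei. MCTP2, which has calcium-binding C2 domains, had 1 UMI in TG and 34 UMIs in 9 WT nuclei. SNX30, a sorting nexin, had 8 UMIs in TG and 60 UMIs in 14 WT nuclei. The other 8 were HSPH1, GFPT2, CHP1, NFIL3, CTNNA2, TP53INP1, GPRC5A and HSP70.2.

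Some stress genes were lower in TG, and for several of them most WT UMIs lay in a small number of nuclei. Of 16 immediate early and stress genes 5 were measured, 0 were higher in TG and 3 were lower, and the median log2 ratio was -3.59. HSPH1, a heat shock chaperone, had 6 UMIs in 4 TG nuclei and 71 UMIs in 5 WT nuclei, with 65 of the 71 in 2 nuclei. DNAJB1, a co-chaperone, had 3 UMIs in TG and 31 UMIs in 3 WT nuclei. NR4A3, an inducible nuclear receptor, had 0 UMIs in TG and 35 UMIs in 7 WT nuclei, at least 15.6-fold lower in TG, and 24 of the 35 lay in 1 nucleus. In non-members NR4A3 was at 57.4 CPM in TG and 346 CPM in WT. The leading WT nucleus of each gene held 65.6% of NFIL3, 66.2% of CHP1, 67.2% of CTNNA2, 83.3% of GFPT2, 57.5% of TP53INP1 and 32 of the 33 UMIs of GPRC5A. It was the same nucleus for CHP1, GFPT2 and GPRC5A and other nuclei for the rest. Without the leading nuclei the GPRC5A ratio was 0.726 in place of 0.0680.

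Hormone and nuclear receptors were lower or past neither ratio in TG, with 4 lower, 0 higher and 6 neither among 10 measured of 18 and a median log2 ratio of -0.80. RORA, a circadian receptor, had 561 CPM in TG and 2002 CPM in WT, a ratio of 0.280 (0.223 to 0.351), and NR3C2, the mineralocorticoid receptor, 218 CPM in TG and 688 CPM in WT. GHR, the growth hormone receptor, had 2816 CPM in TG and 5304 CPM in WT, a ratio of 0.531 that did not pass 0.5. GHR was 5.00 times as high in TG members and 5.89 times in WT members as in their non-members. GIPR, the endogenous counterpart of the transgene's receptor, had 0 UMIs in both groups, and so had GLP1R. PNPLA3, the lipase gene of which a variant is carried, had 10 UMIs in 7 TG nuclei and 2 UMIs in 2 WT nuclei, too few to pass the floor. Neither gene checks the genotype, since no source states which part of each transcript the transgenes hold.

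Most beta-oxidation genes were past neither ratio, and droplet coat genes were divided. Of 6 measured droplet coat genes 2 were higher in TG, 1 was lower and 3 were neither. PLIN2, the coat protein of small droplets in most cells, was the lower one, with 46.8 CPM in TG and 132 CPM in WT. Of 11 measured genes of beta-oxidation 1 (PDK4) was higher in TG and 10 were neither, with a median log2 ratio of -0.02. HADHA, a subunit of the trifunctional protein, had 130 CPM in TG and 132 CPM in WT.

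Secreted factors had 3 higher, 0 lower and 5 neither among 8 measured in TG against WT. AGT, angiotensinogen, which fat also secretes, had 390 CPM in TG and 257 CPM in WT, a ratio of 1.52 (1.01 to 2.31). CFD, adipsin, had 62.4 CPM in TG and 55.6 CPM in WT members, below the 205 and 132 CPM of their non-members. Receptors and SMADs of the TGF-beta family had 0 higher, 3 lower (ACVR1C, TGFBR2 and SMAD3) and 7 neither among 10 measured. Progenitor genes had 1 higher, 1 lower and 2 neither among 4 measured, and genes of inflammation and hypoxia 2 higher, 1 lower and 1 neither among 4.

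Marker levels of other cell types in members with neither signal were summed over each list. Vascular endothelial markers were at 1278 CPM in TG and 459 CPM in WT members, against 5136 CPM in TG and 4118 CPM in WT non-members with neither signal. FLT1, KDR and ESAM were at 0 UMIs in WT members. Macrophage markers were at 1372 CPM in TG and 1057 CPM in WT members, with single members reaching 14102 CPM in TG and 17026 CPM in WT. Lymphocyte markers were at 327 CPM in TG and 438 CPM in WT, with CD3E, CD3G, IL7R and THEMIS at 0 in both libraries. Pericyte markers were at 291 CPM in TG and 48.7 CPM in WT, smooth muscle markers at 431 and 361 CPM, lymphatic markers at 218 and 292 CPM and Schwann markers at 249 and 188 CPM. Of 5 mesothelial genes, BNC1, WT1, KRT8 and CALB2 were at 0 UMIs in both libraries.

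Members with a cardiomyocyte signal were deep nuclei. Cardiomyocyte-signal non-members were deep as well, at medians of 8431 UMIs in TG and 10854 UMIs in WT. The 9 members in TG had a median of 11271 UMIs and the 5 in WT 18674 UMIs, against 4149 UMIs in TG and 6936 UMIs in WT for members with neither signal. RYR2 and CTNNA3 made 12028 and 5907 CPM in the TG ones and 21908 and 8910 CPM in the WT ones. Summed over 10 adipocyte markers, their level was 1492 CPM in TG and 854 CPM in WT, while members with neither signal had 6116 CPM in TG and 4365 CPM in WT and cardiomyocyte-signal non-members 71.7 CPM in TG and 61.2 CPM in WT. The sums include ADIPOQ and PLIN1, which chose the members, so a level above that of non-members was set in part by the rule. ADIPOQ and PLIN1 made up 54 and 20 of the 147 UMIs in TG and 26 and 13 of the 85 in WT. A stricter marker was present in 8 of 9 in TG and 2 of 5 in WT, and in some TG ones it was a single PLIN4 UMI. The matching share among cardiomyocyte-signal non-members was not counted. PPARG was at 152 CPM in TG and 10.0 CPM in WT, and ACVR1C had 3 UMIs in TG and 0 in WT. A single WT nucleus of 14465 UMIs held 30 UMIs of the rule genes, all 8 CIDEC UMIs of this WT group, 27 UMIs of FABP4, 43 of FASN, 7 of ACLY and 3 of SCD, with 0 of PPARG.

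The 5 members with a fibroblast signal, 1 in TG and 4 in WT, had adipocyte markers at 3046 CPM in TG and 2753 CPM in WT. A stricter marker was present in the TG nucleus and in 4 of 4 WT nuclei. PPARG was at 2134 CPM over the 4 WT nuclei and had 0 UMIs in the TG nucleus. ABCA8, the fibroblast gene that set most of this signal, had 35 UMIs over the 4 WT nuclei. PDGFRA, which marks progenitors of fat, had 2 UMIs there and 0 in the TG nucleus. In members with neither signal the progenitor gene DLK1 had 0 UMIs in both libraries.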

How the data were processed

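Per the file headers and labels, each library's deposited matrix holds UMI counts for 31908 genes, from nuclei isolated on an iodixanol gradient and 10x Genomics 3' v3.1 kits. The submitters' processing notes name Sscrofa11.1, Cell Ranger 3.1.0 and Seurat 3.1.1, while the file headers name Cell Ranger 5.0.0; the difference was not resolved. Barcodes with at least 500 genes and at most 5% mitochondrial UMIs were kept, and empty droplets were not used here. The libraries share 81 barcode sequences, 0 of them among members. No doublet caller was run, and members with a second signal were described apart.

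Counts were summed per library and group and scaled to 1000000 nuclear-encoded UMIs, leaving out 13 mitochondrially encoded genes (Python 3.11.15, numpy 2.4.6, pandas 2.3.3, scipy 1.17.1, matplotlib 3.10.9). Levels have exact Poisson intervals, shares exact Clopper-Pearson intervals and ratios conditional binomial intervals, all at 95%; the limit for a count of 0 is 3 counts of the total. List medians used log2 ratios with 0.5 added to each count. Ratios and intervals were tested on simulated data. Depth was 192455 UMIs in TG and 143866 in WT members with neither signal, which limits genes under 20 UMIs.

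Named genes were the members of the 27 lists of adipocyte functions and cell type markers (353 of 382 genes matched), the 25 with the highest lower bound over non-members, and the 12 highest and 12 lowest in TG at 50 CPM or more. The genes ranked in TG against WT also had at least 2 times the non-member level in the library where they were higher. Mitochondrially encoded genes, ribosomal protein genes, XIST, Y-linked genes and unnamed genes were left out of the rankings. The members and lists were chosen with earlier results of these data known. Coordinates are from RefSeq for Sscrofa11.1. No sequence is shown. Alternatives changed the filters, thresholds, depth, scaling, weighting, floors and single nuclei.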

Additional observations from a re-analysis of the deposited data

Results flagged for a closer look

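Barcodes left out by the filter held at least 2 UMIs of ADIPOQ and PLIN1 in 0 of 61 cases in the TG library, which allows a share of up to 4.92%, and in 7 of 1526 in the WT library (0.459%, 0.185 to 0.943%), a signal outside the nuclei analysed. All 7 WT barcodes had over 5% mitochondrial UMIs and 2 also had under 500 genes, with a median of 872 UMIs. They held 4 to 61 UMIs of the 2 genes, and 6 of 7 had at least 1 of the 8 other adipocyte markers. With no filter on barcodes the TG over WT ratio of member shares was 1.79 in place of 2.07.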

How the results depend on the processing

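No paired analysis was possible because each genotype has 1 library, and for the same reason no library could be left out. Alternatives were run for the shares, the counts of genes, 5 list medians and 11 single genes, not for the other genes named. Of the single genes, 0 changed direction. The member share in TG, 0.335%, was 0.241% at 3 or more UMIs, 0.241% with 1 UMI of each gene and 0.210% after thinning to 2000 UMIs, which by construction keep fewer nuclei; the TG over WT ratio of shares ran from 1.73 to 2.29, with intervals above 1 except after thinning (0.935 to 3.28). Counts of genes past a ratio follow the number measured. Over non-members, 519 higher and 427 lower genes became 171 and 157 after thinning, 957 and 830 at 5 UMIs, and 293 and 240 at 50 UMIs. Between TG and WT, 571 higher and 471 lower genes became 123 and 101 after thinning, 2092 and 1370 at 5 UMIs, and 189 and 186 at 50 UMIs. The median of fatty acid synthesis, 1.56, was 0.85 with nuclei weighted equally and 0.89 without the TG nucleus with the most SCD, an alternative chosen after seeing the data. After thinning, lipolysis was -1.11 and triglyceride synthesis 1.65, and the cause was not tested. With members of either signal taken in, an alternative chosen after seeing the data, 164 genes were lower than in non-members, and the medians were 0.83 for fatty acid synthesis, -0.38 for triglyceride synthesis, 0.23 for lipolysis, and 1.01 in TG and 1.26 in WT for adipogenic factors. FASN, a log2 ratio of 5.51 as reported, was then 0.75, and ACLY, 3.84 as reported, was 2.50. With no filter on barcodes FASN was 4.36. Without members with further cell type markers, an alternative chosen after seeing the data, fatty acid synthesis was 1.77, triglyceride synthesis 0.35 and lipolysis 0.03. Adipogenic factors were then 2.32 in TG and 1.97 in WT, against 1.80 and 1.89. ACACA was 2.36 in place of 2.03 and DGAT2 2.32 in place of 1.99. Counts were 501 higher and 456 lower over non-members, and 484 and 450 between TG and WT. After thinning, SCD was 4.50 in place of 7.74, ACLY 2.43, ACVR1C -3.23 in place of -1.81, COL3A1 3.25 in place of 2.55, LPIN1 -2.82 in place of -2.39, NEGR1 -3.50 in place of -4.64 and GPC6 1.88 in place of 2.84. With nuclei weighted equally, ACACA was 1.58 in place of 2.03, DGAT2 1.22 in place of 1.99 and GPC6 2.27. With signal thresholds halved, LPIN1 was -2.81 and GPC6 2.30. Without the TG nucleus with the most SCD, ACACA was 1.47 and ACVR1C -2.70. For shares, counts and medians 174 values stayed within the limits set for them, and for single genes 171 of 187. These limits were wide enough to take in lipolysis at 0.23 in place of -0.35 and FASN at 4.36. They also took in 386 higher genes over non-members in place of 519.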
